A study of Mus musculus with 16 samples.

Results

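The atria of mice were profiled 1 day after myocardial infarction and set against the atria of mice after sham surgery, with 4 arrays in each group, 8 of the 16 arrays in the series. All mice were 10-week-old male C57BL/6 wild-type animals, and the infarct came from ligation of the left anterior descending (LAD) branch of the coronary tree. The other 8 arrays come from mice killed 3 and 7 days after the same ligation, and they enter here through the shared estimate of spread, the filter on low values and a short comparison of the days. Total RNA came from atrial tissue, and each array is a separate mouse as far as the labels say, so that the p-values measure the spread between these samples. The labels state neither left or right atrium, nor the size of the infarct, nor how long after surgery the sham mice were killed. Day 1 arrays are called 11, 12, 13 and 14 and sham arrays 1, 2, 3 and 4, after their titles.

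The ligated artery feeds the front wall of the left ventricle and not mainly the atria, which lie upstream of the injured chamber. Atrial muscle differs from ventricular muscle in its own myosin light chains, in sarcolipin (Sln), in acetylcholine-gated potassium channels and in the storage of atrial natriuretic peptide (Nppa). In the first day after an infarct, neutrophils and then monocytes leave the blood for the heart, and heart muscle cells and fibroblasts answer to stretch, catecholamines and cytokines. In the deposited table, Nppa read 19.93 in every sham array, the top of the scale, and Myl7, the atrial myosin light chain, averaged 17.97 ± 0.28 (SD, n = 4) on the log2 scale in the sham atria. Sln averaged 17.97 ± 0.19 there, so Nppa, Myl7 and Sln were bright. Other atrial genes, such as Myl4 and Sbk2, read far lower in sham, as given below. Genes used as ventricular markers were measured too: Myl2, the ventricular light chain, read 9.71 to 9.86 in the sham arrays and Myl3 16.02 to 16.29.

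Each value is the log2 signal of 1 array row, and 18389 genes with a row of their own passed the filter on low values and were tested. A background level was taken for each array as the median of its negative control rows. It averaged 4.49 in the sham arrays and 4.75 in the day 1 arrays, where array 13 was highest at 4.87 and the others read 4.69 to 4.71. How well positive control rows stand apart from negative ones, taken as an area under the receiver operating curve, was 0.818 ± 0.00389 (SD, n = 4) in the sham arrays and 0.787 ± 0.0219 on day 1. Array 13 had the lowest value, 0.755, against 0.793 to 0.804 in the other day 1 arrays. The day 1 mean was lower by an exact two-sided permutation test (p = 0.0286, the smallest that 4 against 4 allows; adjusted p = 0.0286 over 3 array measures), and without array 13 the day 1 mean was 0.798 (exact p = 0.0571, again the smallest possible). The day 3 array 31 stood apart more: its control separation was 0.743, and its median correlation with the other day 3 arrays was 0.935, where that value was at least 0.983 for every other array within its group. It enters the shared estimate of spread. Array 13 also held the most extreme day 1 value for many genes below. Array 12 was lowest for several atrial genes. Results are therefore given with array 13, and without it wherever a named gene loses its call or a list's count moves by more than 1.5 times.

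Of the 18389 genes, 4587 (24.9%) were higher and 4085 (22.2%) were lower on day 1 than in sham atria at an adjusted p under 0.05 (limma with Benjamini-Hochberg adjustment over all tested genes), which is 47.2% of the genes in all. Below, rose and fell are used only of genes that passed that test. Counts of each list below are to be read beside the shares of all genes, 24.9% higher and 22.2% lower. A list near these shares shows nothing particular to its members. Differences are day 1 minus sham on the log2 scale with the standard error of the fit (SE, n = 4 arrays a group). A change of at least 1 on that scale was seen in 1696 of the genes that rose and 1170 of those that fell. Without array 13, 3344 genes (18.2%) were higher and 3107 (16.9%) lower, and 6373 of the 8672 calls held in the same direction. With array 13 and the day 3 array 31 both left out, 6075 genes (33%) were higher and 4541 (24.7%) lower, and 8445 of the 8672 calls held. Of the 230 genes named here that passed, 12 lost their call without array 13 and 0 without both arrays. The median move of their difference without array 13 was 0.218 and the largest 0.859. The fall was smaller without array 13 in 91 of the 107 named genes that fell, and the rise in 104 of the 123 that rose. The balance of rises and falls depended on the scaling between arrays. The median difference over all tested genes was 0.0635 in the deposited values. It became -0.0679 with quantile normalisation and -0.0284 with every array centred on its median. Rises made up 52.9%, 36.8% and 38.5% of the calls in turn, and small changes should be read against that shift. The 4 day 1 values lay wholly above or below the 4 sham values for 10124 genes (55.1%), of which 7952 passed the test.

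**Figure D1:**
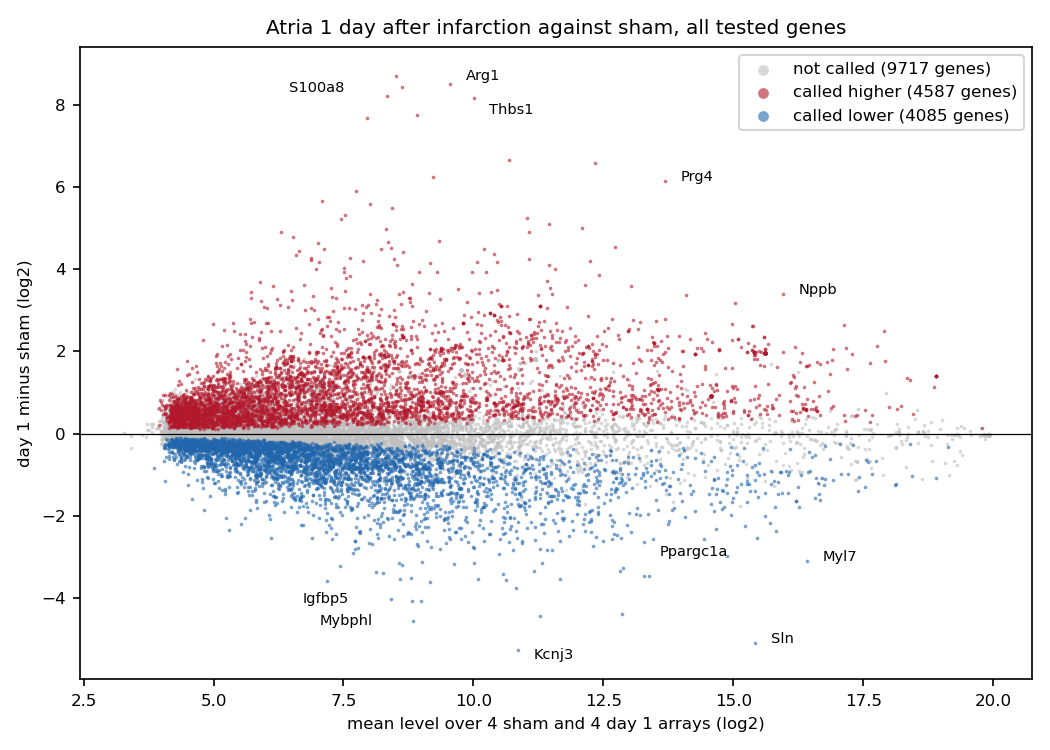
Difference between day 1 and sham (day 1 minus sham, log2) of each tested gene against its mean log2 level over both groups, with genes that rose, fell or did not pass the test drawn apart. The largest rises are among genes near the background in sham atria, such as S100a8, and the largest falls among genes well above it, such as Sln and Kcnj3.

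Genes of neutrophils rose in the day 1 atria. Of 35 genes on the neutrophil list 31 had a row of their own, 12 of these failed the filter on low values and 19 were tested. Of the 19, 18 rose, where 24.9% of all tested genes did. The median difference of the 19 was 4.49, or 4.25 when the 10 members whose sham arrays were all at background are entered at their lower bound. The filter counts infarct arrays too, and 4 of the 19 had no sham array above that array's median, so the count describes only the members that passed. With no filter 20 of the 31 rose, against 15.4% of all genes. Some members of other lists below also passed the filter only through infarct arrays. In bulk tissue a larger number of cells and more RNA per cell cannot be told apart, here or in any list below.

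S100a8, a calcium-binding alarmin that fills neutrophil cytosol, read 4.05, 4.63, 4.31 and 3.98 in sham arrays 1 to 4 and 11.56, 12.30, 13.60 and 12.34 in day 1 arrays 11 to 14. The lowest day 1 value lay more than 6 units above the highest sham value, and the measured difference was 8.21 ± 1.00 (SE; limma adjusted p = 2.75e-05). As 3 of the 4 sham arrays were at or below background, the difference is at least 7.92, the value with sham raised to background. Its partner S100a9 went from 4.91 to 5.23 in sham arrays to 12.34, 12.37, 13.89 and 12.56 on day 1 (7.74 ± 0.94). Retnlg, a resistin-like protein of neutrophils, was at or below background in all sham arrays, at 4.20, 4.29, 4.07 and 4.08, and read 12.43, 11.63, 15.25 and 12.12 on day 1. This is a rise of at least 8.37 on the log2 scale, taken against the background level, with array 13 the highest. Slfn4, a myeloid Schlafen gene, rose by at least 8.34, with array 12 the lowest of day 1 at 10.78 and array 11 the highest at 14.83. Il1r2, the decoy receptor for interleukin-1, rose by at least 7.29, and Mmp8, the neutrophil collagenase, by at least 4.25. Stfa2l1, a stefin protease inhibitor of myeloid cells, rose by 5.21 ± 0.73, and Slfn1 by at least 4.42. Ly6g, the surface antigen used to sort mouse neutrophils, was the tested member that missed the threshold, with 4.58 to 4.94 in sham and 4.71 to 5.75 on day 1 (limma adjusted p = 0.104).

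**Figure D2:**
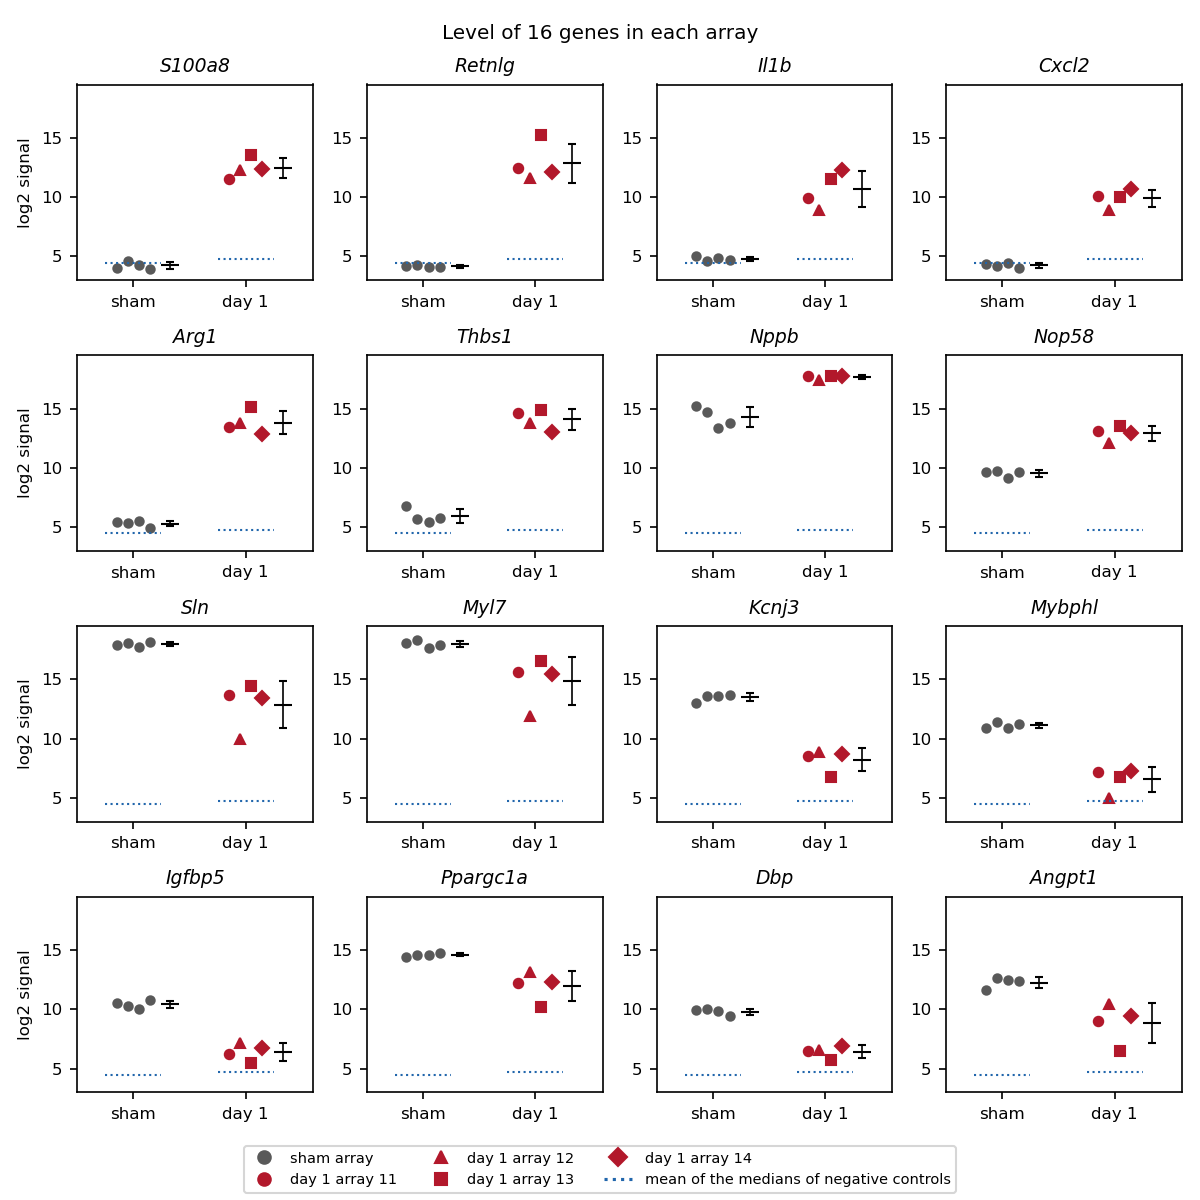
Log2 signal of 16 genes in each of the 4 sham and 4 day 1 arrays, one panel a gene, with the mean and SD of each group and a dotted line at the mean of the arrays' negative control medians. Sham values of S100a8, Retnlg and Cxcl2 lie at the dotted line while every day 1 value lies above it, and for Sln, Myl7 and Mybphl array 12 is the lowest of the day 1 arrays.

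Signals that call leukocytes into tissue rose alongside. Chemokines are small secreted proteins that bind receptors on leukocytes: those of the Cxcl1 and Cxcl2 type act on neutrophils, Ccl2 and Ccl7 on monocytes. Of 20 tested chemokines and related genes, 11 rose and none fell, with a median difference of 1.85, and 11 again rose without array 13. Cxcl2 read 4.33, 4.21, 4.48 and 3.99 in sham arrays and 10.06, 8.92, 10.02 and 10.66 on day 1. All sham values were at background and all day 1 values well above it, a rise of at least 5.43. Ccl2 rose by 4.49 ± 0.42, Ccl9 by 4.37 ± 0.28 and Ccl6 by 4.25 ± 0.31. Cxcl1, named here for its promoter below, rose by 1.88 ± 0.22 as measured, and by 1.69 with the 3 sham arrays that were at background raised to it. Among those that did not pass, Ccl11, which draws eosinophils, averaged 6.83 in sham and 7.08 on day 1, and Cxcl12, the stromal chemokine, 6.81 and 7.03.

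Adhesion genes, which let leukocytes roll on and cross the vessel wall, moved both ways: 12 of 23 rose and 3 fell. Itgam, the integrin alpha chain of neutrophils and monocytes, rose by 6.25 ± 0.47. Its beta chain Itgb2 rose by 3.33 ± 0.25. Selp, the P-selectin of activated platelets and endothelium, read 4.29 to 4.52 in sham and 9.34, 6.65, 10.02 and 9.41 on day 1, so that array 12 showed the smallest rise. The endothelial junction genes Jam2, Jam3 and Pecam1 fell by 1.96 ± 0.42, 1.22 ± 0.20 and 0.62 ± 0.16. Cdh5, the vascular cadherin, averaged 12.85 in sham and 13.20 on day 1 and missed the threshold.

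Interleukin-1 and tumour necrosis factor are early cytokines that switch on the transcription factor NF-kappaB. Of 28 tested genes of these pathways, 22 rose and none fell, and 19 rose without array 13. Il1b itself read 5.02, 4.60, 4.85 and 4.68 in sham arrays and 9.94, 8.95, 11.54 and 12.32 on day 1. It was higher on every day 1 array than on any sham array, by 5.90 ± 0.69 on average (limma adjusted p = 2.01e-05). Tnfrsf12a, the receptor for TWEAK, rose by 3.93 ± 0.46, and Il18rap, a subunit of the interleukin-18 receptor, by 3.59 ± 0.37 (3.46 with 3 sham arrays raised to background). Il1f9, the cytokine also called interleukin-36 gamma, rose from background by at least 2.95. In the interleukin-6 and acute phase list 13 of 23 rose and 1 fell. Il6 read 4.27, 3.98, 3.87 and 4.01 in sham and 6.87, 5.94, 7.37 and 6.69 on day 1, a rise of at least 2.23 from background. The acute phase genes Serpina3n and Hp (haptoglobin) rose by 4.54 ± 0.70 and 2.86 ± 0.47. Of the receptors, Osmr rose by 2.59 ± 0.24 while Lifr fell by 1.49 ± 0.38. Il6st, the signal chain that they share, averaged 12.93 and 13.19 and missed the threshold.

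The promoters of Cxcl1, Cxcl2 and Il6 are shown because these 3 rising genes carry a kappaB motif, the letters NF-kappaB is known to bind. Each sequence is the 250 bases before the annotated start of the gene in RefSeq, build GRCm38.p6, plus strand. The motif, GGGA and TTTCC with any base between them, is in capitals: Cxcl1 at chr5:90890995-90891244, Cxcl2 at chr5:90903649-90903898 and Il6 at chr5:30012864-30013113.
Cxcl1: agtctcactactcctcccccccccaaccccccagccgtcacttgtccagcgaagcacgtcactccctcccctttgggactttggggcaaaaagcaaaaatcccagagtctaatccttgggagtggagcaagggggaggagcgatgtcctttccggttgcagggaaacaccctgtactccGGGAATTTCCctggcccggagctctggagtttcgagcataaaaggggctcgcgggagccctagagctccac
Cxcl2: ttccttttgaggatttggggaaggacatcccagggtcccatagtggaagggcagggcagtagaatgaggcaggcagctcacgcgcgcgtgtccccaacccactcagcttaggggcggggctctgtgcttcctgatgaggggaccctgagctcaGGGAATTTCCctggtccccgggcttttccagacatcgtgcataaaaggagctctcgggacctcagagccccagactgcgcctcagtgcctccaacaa
Il6: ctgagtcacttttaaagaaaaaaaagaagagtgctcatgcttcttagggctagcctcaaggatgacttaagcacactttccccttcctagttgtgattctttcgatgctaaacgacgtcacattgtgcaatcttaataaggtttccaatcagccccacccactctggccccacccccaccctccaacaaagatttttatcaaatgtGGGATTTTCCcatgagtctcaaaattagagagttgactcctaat
The motif was searched on both strands in the 250 bases of each gene that has an entry. It begins 71 bases before the start in Cxcl1, 97 in Cxcl2 and 44 in Il6. Of 15 tested chemokine genes with an entry, 3 held it (20%; Cxcl1, Cxcl2 and Cxcl3), against 40 of 10858 tested genes (0.368%) and 112 of all 27025 genes in the table (0.414%). Among genes that rose, 14 of 2251 held it (0.622%). The interleukin-1 and tumour necrosis factor list held it in 2 of 25 entries. A match describes the letters only, and its part in the rises was not tested.

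Receptors that sense microbial and damaged-cell products also rose in large part: 20 of 30 rose and 1 fell in the pattern receptor and inflammasome list, or 19 and 0 without array 13. Tlr13, a receptor for bacterial RNA, rose by 4.23 ± 0.27, Clec7a, the beta-glucan receptor, by 4.21 ± 0.33 and Clec4e, which senses dead cells, by at least 3.01. Of 7 tested NADPH oxidase genes, whose enzyme makes superoxide in phagocytes, 5 rose, among them Ncf1 (2.55 ± 0.26) and Cybb (2.11 ± 0.45). Lipid mediator genes split, with 8 of 22 higher and 6 lower. Alox5ap, needed for leukotriene synthesis, rose by 4.17 ± 0.28. Ptgs2, the inducible cyclooxygenase, read 6.52, 6.91, 7.57 and 8.33 in sham and 11.39, 9.10, 13.00 and 11.52 on day 1 (3.92 ± 0.64). The prostaglandin F receptor gene Ptgfr fell by 2.38 ± 0.33. Ephx2, a soluble epoxide hydrolase, fell by 2.14 ± 0.69, a call lost without array 13 or without sham array 3.

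Genes of monocytes and of the macrophages they form also rose. Of 25 tested genes 20 rose and none fell, with a median difference of 3.21. For 3 of the 25 no sham array lay above that array's median, and with no filter 19 rose. Arg1, arginase of recruited macrophages, read 5.42, 5.34, 5.49 and 4.96 in sham arrays and 13.45, 13.76, 15.15 and 12.87 on day 1 (8.51 ± 0.66; limma adjusted p = 7.69e-07). Thbs1, thrombospondin of platelets, monocytes and stroma, read 6.76, 5.72, 5.45 and 5.75 in sham and 14.63, 13.77, 14.93 and 13.02 on day 1 (8.17 ± 0.44). In both genes the day 1 arrays lie closer to one another than to any sham array. The receptor genes Lilr4b and Lilrb4a rose by 6.65 ± 0.39 and 6.58 ± 0.37, though these near-identical genes may share signal. Ccr1, a receptor for inflammatory chemokines, rose by 5.31 ± 0.27, the leukocyte tetraspanin Cd53 by 5.25 ± 0.29 and the matrix protein Tgfbi by 5.10 ± 0.35.

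Genes of macrophages resident in the healthy heart did not move together. Of 19 tested, 5 rose and 3 fell. Without array 13 there were 5 rises and 1 fall, and in the fit of the 8 sham and day 1 arrays alone 7 and 6. Pf4 rose by 3.41 ± 0.25, F13a1, a coagulation factor chain, by 1.81 ± 0.23 and Mrc1, the mannose receptor, by 1.69 ± 0.48. Timd4, a receptor for dead cells on long-lived resident macrophages, fell from 5.35 to 5.70 in sham to 4.83 to 5.02 on day 1 (0.64 ± 0.09). Gas6 fell by 1.33 ± 0.49, and that call was lost when array 11, array 13 or any 1 of the sham arrays was left out. Lyve1 averaged 12.40 in sham and 11.79 on day 1 and Cd163 9.16 and 9.35, and neither passed the test.

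Other blood cells were seen through few genes. Most lymphocyte and natural killer markers failed the filter on low values: 6 of 22 were tested and only Il7r rose (1.16 ± 0.35, or 1.08 with 3 sham arrays raised to background). Of 4 tested mast cell and eosinophil genes, Cpa3, the mast cell carboxypeptidase, fell by 1.17 ± 0.24. In the red cell and platelet list 4 of 6 rose, led by the platelet chemokine Ppbp with 5.59 ± 0.49. Complement genes moved both ways, with 7 of 21 higher and 3 lower. Of 9 tested genes of antigen presentation by MHC class II, 2 rose, or 1 without array 13, a share no higher than that of all genes. Ctss, the cathepsin that trims the invariant chain and is rich in macrophages, rose from 9.59 ± 0.23 in sham to 14.59 ± 0.34 on day 1 (SD, n = 4), while H2-Ab1, a class II chain, averaged 9.69 in sham and 9.86 on day 1.

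The interferon response was uneven between mice. In the fit of 16 arrays 1 of 29 tested genes rose: Oas2, by 1.49 ± 0.58 (limma adjusted p = 0.0463), a call lost when array 11, 13 or 14 or any sham array was left out. The median difference was 0.65 and the 4 values of each group did not overlap for 17 of the 29, against 55.1% of all genes. Averaged over the 29 genes, day 1 arrays 11 to 14 lay 1.26, 0.22, 0.49 and 0.74 above sham, so array 12 showed little of it. Ifit1 read 8.75, 6.94, 7.76 and 8.49 on day 1 against 6.18 to 6.66 in sham. In the fit of the 8 sham and day 1 arrays alone, whose estimate of spread leaves out the later days, 19 of the 29 rose, where 32.6% of all tested genes were higher and 24.2% lower.

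Early-response and growth factor genes rose in part. Immediate early genes answer within minutes to hours to growth factors and stretch, and 15 of 27 rose with none lower. Ier3 rose by 3.07 ± 0.48, Klf6 by 1.88 ± 0.27 and Myc by 1.51 ± 0.13. Rcan1, a calcineurin target, rose by 2.34 ± 0.61, from 12.67, 10.91, 9.27 and 9.11 in sham to 12.43 to 13.05 on day 1, so that sham array 1 overlapped the day 1 arrays. Nr4a1, a classical early gene, averaged 7.40 in sham and 7.07 on day 1 and did not pass. On the feedback inhibitor list 10 of 25 rose and 1 fell. The largest rise on it was that of Il4ra (4.68 ± 0.31), the interleukin-4 receptor chain, which is a signalling receptor and not itself an inhibitor.

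The epidermal growth factor family moved both ways. Of 13 tested ligands, receptors and related genes 5 rose and 4 fell. Hbegf read 6.05 to 6.22 in sham and 10.94, 9.35, 11.52 and 10.86 on day 1 (4.51 ± 0.42). Ereg rose by 3.27 ± 0.40 and Nrg1, the neuregulin that acts on heart muscle, by 1.38 ± 0.35. The ligands Egf and Nrg2 fell by 0.56 ± 0.07 and 0.42 ± 0.06. Of the receptors, Erbb4 and Erbb3, which bind neuregulins, fell by 1.20 ± 0.18 and 0.71 ± 0.11. Egfr rose by 0.40 ± 0.15, a call lost when any day 1 array or sham array 2, 3 or 4 was left out. In the TGF-beta, activin and BMP list 11 of 32 rose and 4 fell. The ligands Tgfb3, Tgfb2 and Inhba rose by 2.50 ± 0.62, 2.42 ± 0.27 and 1.33 ± 0.19, and Id2, a target of BMP signals, by 2.87 ± 0.24. Tgfbr3, the co-receptor betaglycan, fell by 1.19 ± 0.26. Of 12 tested Wnt genes 4 fell and none rose, with Dkk3 the largest (3.13 ± 0.45).

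Genes for making ribosomes rose as a body. Ribosome biogenesis takes place in the nucleolus, where precursor RNA is cut, modified and joined to ribosomal proteins. Of 40 tested genes 34 rose and none fell, and 33 rose without array 13. The median difference was 0.82. Nop58, a core protein of box C/D small nucleolar particles, read 9.68, 9.77, 9.11 and 9.64 in sham and 13.13, 12.08, 13.55 and 12.93 on day 1 (3.37 ± 0.25; limma adjusted p = 5.86e-07). Every day 1 array lay more than 2 units above the highest sham array. The helicase Ddx21 rose by 2.45 ± 0.18, Heatr1, needed for ribosomal RNA synthesis, by 1.96 ± 0.13 and the processing factor Rrp12 by 1.57 ± 0.12. Ribosomal proteins of the cytosol followed with smaller steps: 19 of 24 rose, by a median over the 24 of 0.53, led by Rpl12 (1.20 ± 0.16). Another 29 of the 53 listed had no tested row of their own. Of 18 cytosolic aminoacyl-tRNA synthetases, which load amino acids onto tRNA, 11 rose, as Rars did by 1.04 ± 0.12. In the polyamine pathway 9 of 13 rose, among them Odc1, the rate-limiting decarboxylase (1.65 ± 0.20), and Srm, spermidine synthase (1.67 ± 0.18).

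The unfolded protein response raises chaperones and folding enzymes of the endoplasmic reticulum when misfolded protein builds up. Of 26 tested genes 19 rose and 1 fell, and 18 rose without array 13. Creld2, a secretory chaperone, read 8.55, 9.06, 7.88 and 7.89 in sham and 10.70, 10.20, 9.98 and 10.77 on day 1 (2.07 ± 0.25). The transcription factor Xbp1 rose by 1.84 ± 0.19, Edem1, which sorts misfolded glycoproteins for removal, by 1.82 ± 0.17 and P4hb, a disulfide isomerase, by 1.79 ± 0.12. Herpud1, part of the degradation machinery, went the other way, from 14.14, 14.33, 14.78 and 14.76 to 11.54, 12.30, 10.08 and 11.08 (a fall of 3.25 ± 0.58). Canx, the lectin chaperone calnexin, averaged 15.07 and 15.04. Named for their promoters, Hspa5, the main chaperone of the compartment also called BiP, rose by 0.94 ± 0.18, and the isomerase Pdia6 by 1.27 ± 0.19.

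The promoters of Hspa5, Pdia6 and Creld2 are shown because they are among 8 of the list's 22 promoters that hold an element of known sequence. This endoplasmic reticulum stress element (ERSE), which ATF6 is known to bind together with NF-Y, has the letters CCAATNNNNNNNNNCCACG and is in capitals. Each sequence is the 250 bases before the RefSeq start on build GRCm38.p6, plus strand: Hspa5 at chr2:34771840-34772089, Pdia6 at chr12:17266339-17266588 and Creld2 at chr15:88819396-88819645.
Hspa5: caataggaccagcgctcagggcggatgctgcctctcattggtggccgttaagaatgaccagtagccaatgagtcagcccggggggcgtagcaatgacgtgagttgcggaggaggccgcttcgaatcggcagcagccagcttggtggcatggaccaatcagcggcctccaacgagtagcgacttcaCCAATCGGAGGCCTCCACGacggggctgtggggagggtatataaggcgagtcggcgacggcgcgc
Pdia6: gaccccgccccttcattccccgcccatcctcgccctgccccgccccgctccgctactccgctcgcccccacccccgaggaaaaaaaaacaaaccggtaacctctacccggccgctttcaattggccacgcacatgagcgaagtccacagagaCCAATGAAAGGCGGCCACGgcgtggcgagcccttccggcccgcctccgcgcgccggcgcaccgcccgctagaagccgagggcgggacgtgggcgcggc
Creld2: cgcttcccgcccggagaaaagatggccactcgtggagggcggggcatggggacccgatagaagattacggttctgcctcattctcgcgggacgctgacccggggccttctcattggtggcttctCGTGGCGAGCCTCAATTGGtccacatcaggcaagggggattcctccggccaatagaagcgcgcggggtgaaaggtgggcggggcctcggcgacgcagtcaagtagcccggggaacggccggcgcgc
In Creld2 the element runs on the other strand, so its letters appear as the reverse complement. The first capital letter as printed lies 65 bases before the start in Hspa5, 98 in Pdia6 and 126 in Creld2, where it is the last base of the element on its own strand. Of 22 tested members of the list with a promoter entry, 8 held the element on either strand (36.4%), against 18 of 10858 tested genes (0.166%) and 35 of 27025 genes in the table (0.13%). Canx holds it as well, and its values did not pass the test. The list holds known genes of this response, so its share is not independent of how the members were chosen. Among all genes that rose, 9 of 2251 held the element (0.4%), and 2 of 3018 among those that fell (0.0663%). The part of the element in the rises was not tested.

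Amino acid transport and synthesis genes driven by ATF4, the arm of the stress response shared with amino acid shortage, rose for 15 of 26 and fell for 5. Slc38a2, a neutral amino acid transporter, rose by 2.66 ± 0.27, the cystine transporter Slc7a11 from background by at least 2.16, Slc7a5 by 2.01 ± 0.21 and Asns, asparagine synthetase, by 1.38 ± 0.15. Vldlr, a lipoprotein receptor on the same list, fell by 2.11 ± 0.45. The letters TGATGCAA, an element that ATF4 is known to bind, stood in 4 of 21 promoters of the list (19%), those of Slc7a11 and Vldlr among them. They stood in 0.764% of the promoters of tested genes, in 1.11% among all genes that rose and in 0.663% among those that fell. The list holds known genes of this response, so its share is not independent of how the members were chosen. The part of these letters in the changes was not tested. Heat shock genes of the cytosol split, with 6 of 25 higher and 9 lower, or 5 lower without array 13. Hspa1a was at background in sham and read 7.38, 4.63, 7.78 and 5.47 on day 1, a rise of at least 1.83 with array 12 at background, and Hspb1 rose by 1.83 ± 0.28. Hspa4l fell by 1.52 ± 0.25. Of 34 proteasome subunits 9 rose and 1 fell, or 10 and 0 without array 13, and 20 rose when array 13 and the day 3 array 31 were both left out. With array weights in the fit 19 rose, and 28 with control separation as a covariate. Over every alternative run the rises numbered 6 to 28, so this count is not settled.

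Matrix genes moved both ways. Of 22 tested matricellular proteins, which sit in the matrix and act on cells, 7 rose and 5 fell, or 5 and 5 without array 13. With array 13 these are shares of 31.8% and 22.7%, where 24.9% and 22.2% of all genes rose and fell. Tnc, tenascin-C of healing tissue, rose by 4.18 ± 0.47 and Fn1, fibronectin, from 8.49 to 8.77 in sham to 12.75, 13.88, 14.77 and 12.68 on day 1 (4.91 ± 0.44). Fbln1, a fibulin, and Sparcl1 fell by 1.92 ± 0.19 and 1.81 ± 0.45. Prg4, lubricin, read 12.42, 9.93, 10.28 and 9.81 in sham and 16.70, 15.91, 17.36 and 17.08 on day 1 (6.15 ± 0.83). Its highest sham array, number 1, still lay below every day 1 array. Of 29 metalloproteinases and inhibitors 16 rose and 6 fell. For 4 of the 29 no sham array lay above that array's median, and with no filter 17 of 38 rose and 6 fell. Timp1, a tissue inhibitor, rose by 4.67 ± 0.40, the protease Adamts1 by 3.53 ± 0.31 and Adam8 by 3.05 ± 0.25, while Timp4 and Timp2 fell by 1.62 ± 0.34 and 1.55 ± 0.40. Itga5, the fibronectin receptor chain, led the integrins, of which 10 of 18 rose, with 4.17 ± 0.37. Of 27 collagens 3 rose (11.1%) and 4 fell (14.8%), below the shares of all genes. With values below background raised to it 12 rose and 1 fell, and after quantile normalisation 3 rose and 9 fell. The collagen counts are therefore not settled. Col12a1 rose by 1.21 ± 0.35 and Col4a1 of the basement membrane by 1.18 ± 0.25, and Col14a1 fell by 1.37 ± 0.39. Col3a1 averaged 8.35 ± 0.38 (SD, n = 4) in sham and 9.19 ± 0.57 on day 1 (limma adjusted p = 0.15). Lox, which crosslinks collagen, rose by 3.25 ± 0.49.

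Small leucine-rich proteoglycans and elastic fibre genes, products of quiet connective tissue, fell for 11 of 22 with none higher. Podn fell by 2.77 ± 0.27, Efemp1 by 2.40 ± 0.59 and Prelp by 1.97 ± 0.35. Ogn, osteoglycin, fell by 2.32 ± 0.71, a call lost without array 13. The list of resting fibroblast genes moved the same way: 19 of 25 fell and 1 rose, and 15 fell without array 13. The median difference was -1.17. Abca8a, a lipid transporter of stromal cells, read 10.87, 11.06, 11.93 and 12.17 in sham and 9.18, 9.64, 7.34 and 9.43 on day 1 (a fall of 2.61 ± 0.60). Ces1d, a carboxylesterase, fell by 2.57 ± 0.21 and Dpt, dermatopontin, by 2.24 ± 0.49. Medag was the member that rose (0.68 ± 0.14). Of 23 genes of activated fibroblasts 6 rose (26.1%), near the 24.9% of all genes, and none fell. In the fit of the 8 sham and day 1 arrays alone 11 rose and 3 fell, and after quantile normalisation 6 rose and 3 fell. Among the rises was Pdpn, podoplanin, at 2.92 ± 0.24 beside Timp1, Tnc and Lox. Postn, periostin, averaged 11.97 ± 0.45 in sham and 13.30 ± 0.36 on day 1 (SD, n = 4) and missed the threshold (limma adjusted p = 0.114).

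Actin and the proteins that bundle and anchor it rose for 28 of 35 genes with none lower, with and without array 13, and the median difference was 1.04. Actb, the beta-actin gene often used as a reference, read 14.80, 14.38, 14.20 and 14.27 in sham and 16.45, 16.14, 16.60 and 16.39 on day 1 (1.98 ± 0.19). Gapdh, another common reference, lay at the top of the scale, where no difference can be read. Msn, moesin, rose by 3.36 ± 0.26, the leukocyte bundling protein Lcp1 by 3.29 ± 0.26, Actn1, the non-muscle actinin, by 3.10 ± 0.25 and Flna by 2.47 ± 0.21. Several of these genes are abundant in leukocytes, whose markers rose in the same arrays, and the part of those cells in this list was not tested.

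**Figure D3:**
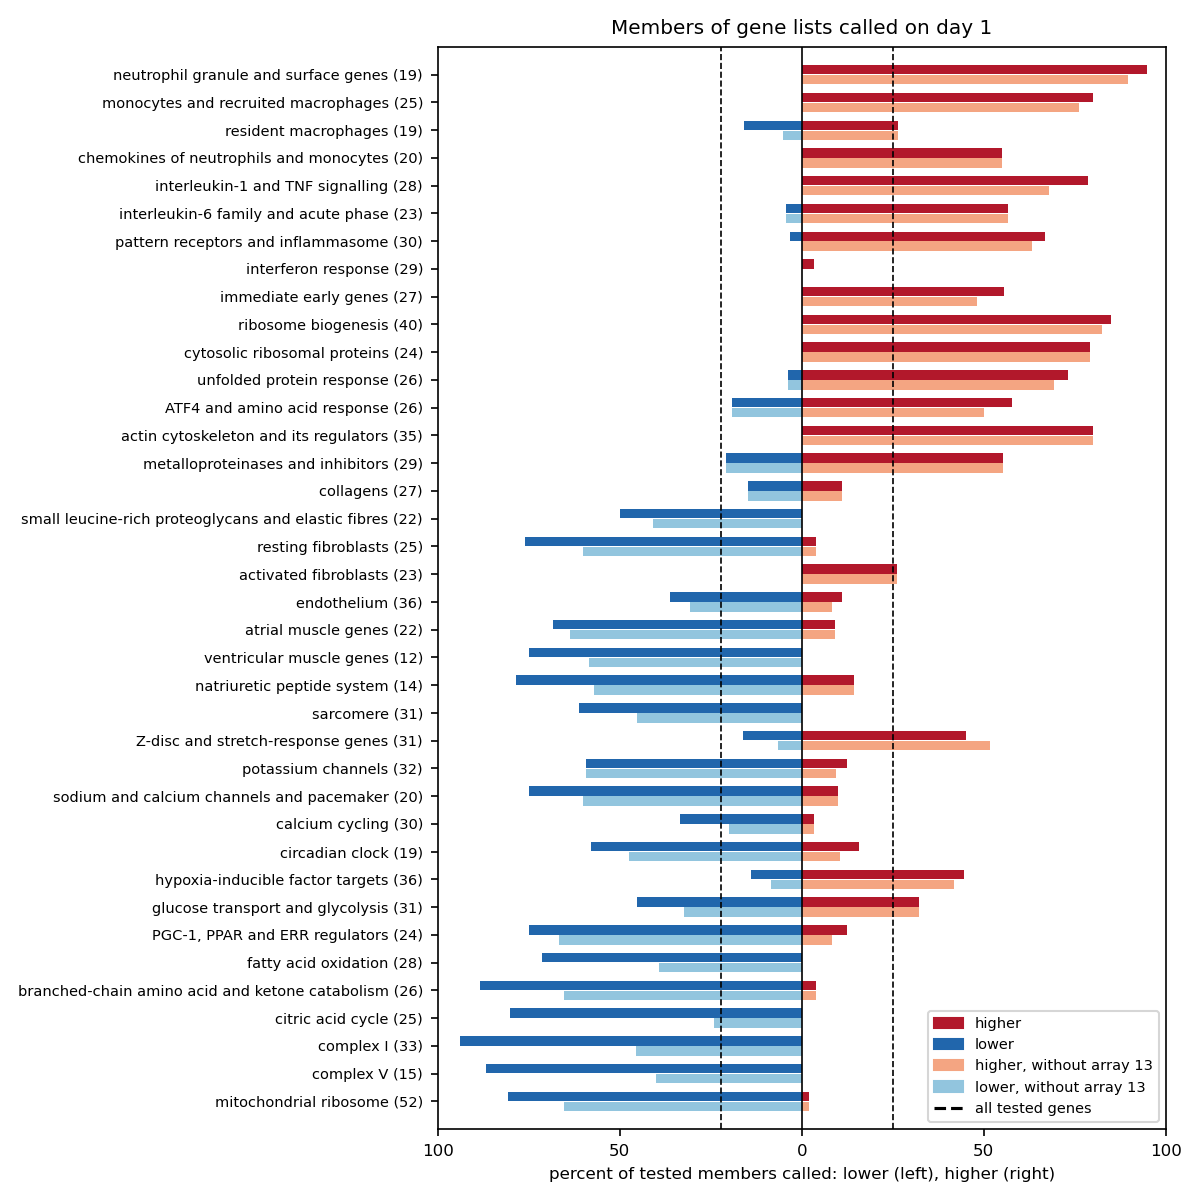
For selected gene lists, the share of tested members that rose and that fell on day 1 (percent, with and without array 13), beside dashed lines at the shares of all tested genes (24.9% higher, 22.2% lower). Neutrophil, monocyte and ribosome biogenesis lists lie far to the side of rises, and mitochondrial lists, resting fibroblasts and atrial muscle genes to the side of falls, where leaving out array 13, with the day 3 array 31 still in the fit, lowers the share of several mitochondrial lists by more than 1.5 times.

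Genes that set atrial muscle apart fell. Of 22 tested 15 fell and 2 rose, with a median difference of -1.36, and 14 fell without array 13. Sln, sarcolipin, which restrains the calcium pump of the atrial sarcoplasmic reticulum, read 17.93, 18.05, 17.72 and 18.16 in sham and 13.70, 10.01, 14.40 and 13.41 on day 1 (a fall of 5.09 ± 1.29; limma adjusted p = 0.00597). All day 1 arrays lay more than 3 units below sham, and array 12 lay a further 3 below the others. Kcnj3, a subunit of the acetylcholine-gated potassium channel, read 12.99, 13.61, 13.62 and 13.71 in sham and 8.53, 8.89, 6.77 and 8.68 on day 1 (a fall of 5.26 ± 0.94). Mybphl, a myosin-binding protein of atria and conduction tissue, read 10.89 to 11.37 in sham and 7.21, 4.97, 6.76 and 7.29 on day 1 (a fall of 4.55 ± 0.89). Igfbp5, a binding protein of insulin-like growth factors, fell from 10.06 to 10.76 to 5.46 to 7.18 (4.01 ± 0.53), and Sbk2, a kinase gene with high atrial levels, from 6.30 to 6.78 down to background, by at least 1.74.

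Myl7 varied widely among the day 1 arrays. It read 18.05, 18.29, 17.62 and 17.93 in sham and 15.58, 11.90, 16.53 and 15.48 on day 1. The groups did not overlap, yet the fall of 3.10 ± 1.20 barely passed (limma adjusted p = 0.0461), and the call was lost when array 11, 12 or 14 or any sham array was left out. Myl4, the other atrial light chain, read 6.89 to 7.13 in sham and 6.86, 5.56, 7.18 and 6.98 on day 1, with array 12 again lowest, and did not pass (limma adjusted p = 0.356). Nppa stayed at the top of the scale in both groups, so that no difference can be read. The mean difference of the 22 atrial genes was -1.41, -2.06, -1.42 and -1.35 in day 1 arrays 11 to 14. Of the ventricular list 9 of 12 fell, or 7 without array 13, and here the means were -0.80, -0.44, -1.53 and -0.78. Array 12 thus lay lowest for atrial genes and highest for ventricular ones. Lrrc39, a ventricular-list gene of the sarcomere, fell by 2.61 ± 0.60, and Myl3 read 15.77, 16.15, 14.72 and 15.38 on day 1 and did not pass. Whether the piece of atrium taken differed between mice was not tested.

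Within the natriuretic peptide system the peptide and the genes that handle it parted. Nppb, the B-type peptide released on stretch, read 15.22, 14.71, 13.38 and 13.76 in sham and 17.74, 17.37, 17.73 and 17.78 on day 1 (3.39 ± 0.34; limma adjusted p = 5.53e-06). The day 1 arrays lay within 0.5 of one another. Of 14 tested genes 2 rose, Nppb and the protease Furin (0.40 ± 0.09), and 11 fell, or 8 without array 13. Npr3, the clearance receptor, fell by 2.61 ± 0.47. Pcsk6, a convertase that activates corin, fell by 1.57 ± 0.20 and Mme, neprilysin, which degrades the peptides, by 1.56 ± 0.24. Corin, which cuts the A-type precursor, fell by 1.92 ± 0.61, a call lost without array 13.

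Of 28 tested cardiac transcription factors 15 fell and 1 rose, while 8 fell and 0 rose without array 13 and 15 fell without arrays 13 and 31. Prox1 fell by 1.52 ± 0.43 and Mef2c, a regulator of muscle genes, by 1.20 ± 0.31. Tbx5, which maintains atrial identity and rhythm, read 9.24 to 9.62 in sham and 8.36, 7.14, 8.48 and 8.64 on day 1 (a fall of 1.33 ± 0.43), and its call was lost without day 1 array 12 or sham array 2. Smyd1, a muscle methyltransferase, fell by 1.42 ± 0.48, which was lost without array 13, sham array 2 or sham array 3. Gata6 averaged 10.64 in sham and 10.22 on day 1 and did not pass.

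Ion channel genes, which shape the action potential, fell in most cases. Of 32 potassium channel genes 19 fell and 4 rose, and 19 fell without array 13 too. The median difference of the 32 was -0.36, and 0.08 with all values below background raised to it, where 15 fell and 11 rose. Behind Kcnj3, the background channel Kcnk3 fell by 2.76 ± 0.38 and Kcnip2, the subunit that carries the transient outward current with its pore, by 2.64 ± 0.34, while Kcnd2, a pore gene of that current, fell by 2.44 ± 0.53. Abcc9, the sulfonylurea subunit of ATP-sensitive channels, fell by 2.47 ± 0.43. Kcne4, a modulating subunit, rose by 1.50 ± 0.23. Of 20 sodium and calcium channel and pacemaker genes 15 fell and 2 rose. Without array 13, 12 fell, and with all values below background raised to it 10 fell and 4 rose. Scn7a, a sodium-sensing channel, fell by 2.42 ± 0.57, and Fgf13, a partner of sodium channels, by 1.13 ± 0.23. Cacna1c, the main L-type calcium channel, fell by 1.53 ± 0.56, but that call was lost when array 11, 13 or 14 or sham array 2, 3 or 4 was left out. Cacna1d, the L-type channel of atria and pacemaker tissue, rose by 0.76 ± 0.12.

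Calcium handling changed at the margin of the test. Of 30 tested genes 10 fell and 1, Rcan1, rose. The count of falls was 6 without array 13, 16 in the fit of 8 arrays and 19 when arrays 13 and 31 were both left out. Tmem38a, a counter-ion channel of the sarcoplasmic reticulum, fell by 2.34 ± 0.67 and Hrc, a calcium-binding protein of its lumen, by 1.90 ± 0.41. S100a1, which tunes the pump and the release channel, fell by 1.78 ± 0.54 and lost its call without array 13. Casq2, calsequestrin, averaged 17.35 in sham and 16.78 on day 1 and did not pass. The pump gene Atp2a2 and its inhibitor Pln were at the top of the scale. In the adrenergic, muscarinic and cyclic AMP list 16 of 41 fell and 6 rose. Adcy6, a cardiac adenylyl cyclase, fell by 1.73 ± 0.30, Prkaca, the catalytic subunit of protein kinase A, by 1.68 ± 0.42 and Rgs2 by 1.56 ± 0.38. Grk5, a kinase that silences adrenergic receptors, rose by 1.69 ± 0.23.

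Contractile genes fell, while part of the stretch-response genes of the Z-disc rose. Of 31 sarcomere genes 19 fell and none rose, or 14 fell without array 13. Mylk4, a myosin light chain kinase, read 9.79, 10.67, 11.37 and 12.05 in sham and 7.80, 7.53, 6.83 and 7.32 on day 1 (a fall of 3.60 ± 0.49), and Mybpc3, cardiac myosin-binding protein C, fell by 2.55 ± 0.68. The thin-filament gene Tnnc1 averaged 18.28 and 17.97 and did not pass. Tnnt2 and Myh6 were at the top of the scale. Of 31 Z-disc and stretch genes 14 rose and 5 fell, or 16 and 2 without array 13. Flnc, filamin C, read 9.53, 9.78, 9.33 and 9.03 in sham and 13.72, 12.22, 14.81 and 13.28 on day 1 (4.09 ± 0.45). Xirp1, an actin-binding protein of the intercalated disc, rose by 3.10 ± 0.34 and Ankrd2, a stretch-induced ankyrin protein, by 2.69 ± 0.17. Tcap, telethonin, which caps titin, fell from 14.80 to 15.28 to 10.39 to 12.12 (3.46 ± 0.56), and Fhl2 fell by 2.16 ± 0.55. At the intercalated discs 8 of 24 genes fell and 4 rose, with 4 falls when array 13 was left out. Dsc2, a desmosomal cadherin, fell by 2.66 ± 0.42, Bves, a membrane protein that binds cyclic AMP, by 2.14 ± 0.44, and Xirp2 rose by 2.09 ± 0.25.

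Genes of mitochondria and fuel use fell in most lists in the fit of all arrays. The number of calls dropped without array 13 as long as the day 3 array 31 stayed in the fit, while median differences kept their direction in each of these lists. Among the regulators, 18 of 24 genes of the PGC-1, PPAR and ERR list fell and 3 rose, and 16 fell without array 13. Ppargc1a, the coactivator PGC-1 alpha that drives mitochondrial genes, read 14.46, 14.57, 14.58 and 14.77 in sham and 12.21, 13.12, 10.20 and 12.34 on day 1 (a fall of 2.63 ± 0.63; limma adjusted p = 0.00414). Perm1, a muscle regulator downstream of it, fell by 2.65 ± 0.60, Lpin1 by 2.62 ± 0.61 and the retinoid receptor gene Rxrg by 2.03 ± 0.32. All 4 calls held without array 13.

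Fatty acid oxidation is the main fuel pathway of the heart. Of 28 tested genes 20 fell and none rose, with a median difference of -1.17. Without array 13, 11 fell and the median was -0.94, and without arrays 13 and 31 25 fell. Acad11, an acyl-CoA dehydrogenase, fell by 3.15 ± 0.65 and Cpt2, which reforms acyl-CoA inside mitochondria, by 2.49 ± 0.60. Cpt1b, the gatekeeper of that shuttle in muscle, read 14.19 to 14.46 in sham and 12.88, 13.32, 10.99 and 12.35 on day 1 (a fall of 1.95 ± 0.56). Acadl averaged 18.16 and 17.57 and did not pass. For branched-chain amino acids and ketones 23 of 26 fell, or 17 without array 13 and 24 without arrays 13 and 31. Ppm1k, the phosphatase that switches on branched-chain oxidation, fell by 2.83 ± 0.70, and Dbt, a subunit of the enzyme it acts on, by 2.35 ± 0.48. Bcat1, the cytosolic transaminase, rose by 0.83 ± 0.10.

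In the citric acid cycle 20 of 25 genes fell in the fit of all arrays and 6 without array 13, and the median difference was -1.15 with it and -0.86 without it. Cs, citrate synthase, read 18.04, 18.06, 18.29 and 18.02 in sham and 17.06, 17.46, 15.66 and 16.63 on day 1. The groups did not overlap, yet the fall of 1.40 ± 0.45 lost its call without array 13 or sham array 3. The respiratory chain showed the same shape. For complex I, which takes electrons from NADH, 31 of 33 fell, against 15 without array 13. For complexes II and III 12 of 16 fell against 7, for complex IV with cytochrome c 15 of 21 against 9, and for the ATP synthase 13 of 15 against 6. The median difference of complex I was -1.01 with array 13 and -0.81 without it. Ndufa8 of complex I fell by 2.11 ± 0.47 and Atp5g2, a membrane ring subunit of the synthase, by 1.39 ± 0.29, and both calls held without array 13. When array 13 and the day 3 array 31 were both left out, all 33 genes of complex I and all 25 of the cycle fell, as did 15 of complexes II and III, 19 of complex IV and 14 of the ATP synthase. Of 52 mitochondrial ribosome genes 42 fell and 1 rose, with 34 falls without array 13. Mrpl39 fell by 1.68 ± 0.36.

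**Figure D4:**
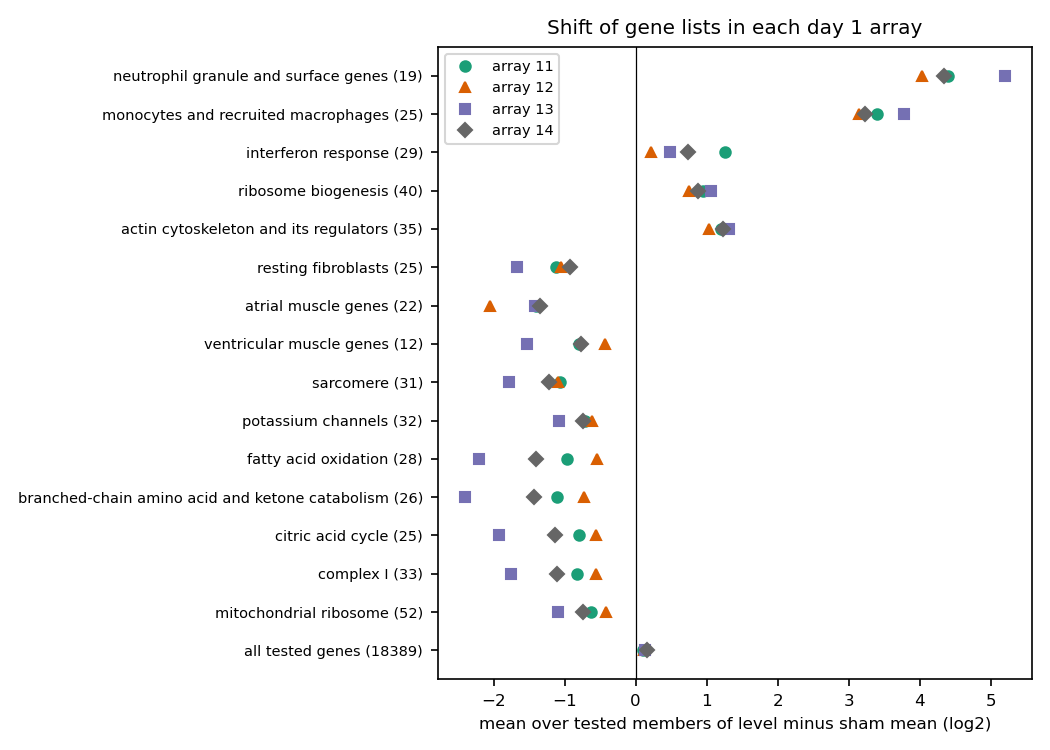
Mean difference from the sham mean (log2) of selected gene lists in each day 1 array, 11 to 14, with 0 at the sham mean and all tested genes in the bottom line. Array 13 lies lowest for fatty acid oxidation (-2.20 against -0.55 to -1.40 in the others) and highest for neutrophil genes (5.20 against 4.03 to 4.40), while array 12 lies lowest for atrial muscle genes.

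Array 13 was thus the most extreme day 1 array for the neutrophil list and for the mitochondrial lists. It was also the day 1 array with the lowest control separation. With control separation as a covariate in the fit, 4513 genes were higher and 3305 lower, against 4587 and 4085 without it. Over the alternatives other than leaving out 1 array, falls of complex I numbered 21 to 33 and those of the ATP synthase 6 to 14. The part of control separation in the values of array 13 alone was not tested. The other day 1 arrays moved the same way, by less. For complex I the mean difference was -0.82, -0.55 and -1.10 in arrays 11, 12 and 14 and -1.76 in array 13. Among genes called with and without it, Lrtm1, Asb15 and Angpt1 had the widest gap between array 13 and the other day 1 arrays. Lrtm1 read 11.59, 11.99 and 11.00 in arrays 11, 12 and 14 and 8.09 in array 13, and fell by 4.38 ± 1.20 with array 13 and by 3.52 without it. Asb15, an ankyrin repeat gene of muscle, fell by 3.74 ± 0.77 and by 2.93 in turn. Angpt1, the ligand that steadies vessels, read 11.61, 12.61, 12.45 and 12.40 in sham and 9.03, 10.48, 6.50 and 9.41 on day 1, a fall of 3.41 ± 0.97 with array 13 and of 2.62 without it.

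Glucose genes moved both ways. Of 31 tested 10 rose and 14 fell. Slc2a4, the insulin-responsive glucose transporter of muscle, read 10.83, 11.20, 11.54 and 11.25 in sham and 8.49, 9.05, 6.46 and 8.13 on day 1 (a fall of 3.17 ± 0.61). Slc2a1, the widely expressed transporter, read 8.08, 8.54, 9.01 and 8.81 in sham and 11.81, 11.28, 12.85 and 12.28 on day 1 (a rise of 3.44 ± 0.53). Pfkm, the muscle phosphofructokinase, fell by 2.56 ± 0.62, while Pfkfb3, which makes the activator of that step in many cell types, rose by 1.83 ± 0.22. Of 33 lipid storage genes 7 were higher (21.2%) and 9 lower (27.3%), near the shares of all genes (24.9% and 22.2%). Angptl4, an inhibitor of lipoprotein lipase, rose by 3.05 ± 0.30 and the droplet coat Plin2 by 2.77 ± 0.27, and Dgat2, which makes triglyceride, fell by 3.34 ± 0.67.

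Clock genes, which cycle over the day, mostly fell. Of 19 tested 11 fell and 3 rose, or 9 and 2 without array 13. Dbp, an output gene of the clock, read 9.95, 10.02, 9.84 and 9.44 in sham and 6.53, 6.61, 5.72 and 6.93 on day 1 (a fall of 3.37 ± 0.27; limma adjusted p = 8.41e-07). Nr1d2 fell by 2.10 ± 0.34, Usp2 by 2.06 ± 0.31 and Tef by 1.53 ± 0.13, and Hlf fell to background, by at least 1.02. Arntl, the partner of Clock on the opposite limb of the cycle, rose by 0.66 ± 0.19. The labels do not give the hour of killing, so time of day and infarction cannot be told apart here. The E-box CACGTG, the letters that Clock and Arntl are known to bind, was in 4 of 16 clock gene promoters (25%) and in 8.92% of the promoters of tested genes. In the ribosome biogenesis list, 2 of 34 promoters held it. Among all genes that rose 9.55% of promoters held it, and 9.01% among those that fell. The clock list holds known clock genes, so its share is not independent of how the members were chosen. The part of the E-box in the changes was not tested.

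Stress lists beyond these moved in both directions. Of 36 targets of the hypoxia-inducible factors 16 rose and 5 fell, the latter 3 without array 13. Adm, adrenomedullin, rose by 3.16 ± 0.53, and Egln1, an oxygen-sensing hydroxylase, fell by 1.56 ± 0.21, while Vegfa averaged 11.24 in sham and 11.62 on day 1 and did not pass. Among antioxidant and iron genes 11 of 33 rose (33.3%) and 8 fell (24.2%), where 24.9% and 22.2% of all genes did. Hmox1, heme oxygenase, read 5.83, 5.08, 6.22 and 5.61 in sham and 11.03, 10.73, 12.29 and 10.64 on day 1 (5.49 ± 0.40), Gsr, glutathione reductase, rose by 3.43 ± 0.54, and Cat, catalase, fell by 1.65 ± 0.49 with a call lost without array 13. Of 28 cell death and p53 genes 16 rose and 2 fell, or 13 and 0 without array 13. Gadd45g rose by 2.73 ± 0.31 and Bcl2a1a, a survival factor of leukocytes with near-identical copies, by 3.61 ± 0.38. Among glucocorticoid-responsive genes 8 of 28 rose (28.6%) and 6 fell (21.4%), near the shares of all genes. Lcn2, lipocalin of neutrophils and stressed tissue, rose by 4.11 ± 0.25 and Klf9 fell by 1.96 ± 0.56. Of 31 replication and mitosis genes 7 rose, among them Mcm6 (1.12 ± 0.28), a share below the 24.9% of all genes. In the fit of 8 arrays 16 rose, against 32.6% of all genes, and after quantile normalisation 3 did, against 18.8%. Over the alternatives other than leaving out 1 array, the rises of this list numbered 3 to 23, so its share is not settled.

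Vessel and lining cells showed mixed values. Of 36 endothelial genes 13 fell and 4 rose. Cytl1 fell by 4.06 ± 0.66 and the water channel Aqp1 by 2.42 ± 0.48, and Angpt2, which loosens vessels, rose by 1.77 ± 0.22. Of 19 smooth muscle and pericyte genes 6 fell and 3 rose. Rgs5, a pericyte gene, fell by 1.78 ± 0.58, a call lost without array 13, and Mcam rose by 1.84 ± 0.19. Of 17 epicardial and mesothelial genes 7 fell and 1 rose. Upk3b, a mesothelial surface gene, read 7.94, 8.06, 7.34 and 8.04 in sham and 5.41, 4.72, 6.61 and 5.73 on day 1 (a fall of 2.23 ± 0.48), and Aldh1a2, which makes retinoic acid in activated epicardium, rose by 2.75 ± 0.27. In the growth factor list of PDGF, FGF, VEGF and IGF genes 12 of 32 fell and 5 rose, with 7 falls without array 13, and Igfbp3 rose by 2.72 ± 0.41.

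The rest of the largest falls were genes with a less settled role in the atrium. Cabcoco1 fell by 4.44 ± 0.83, Lrrc14b by 4.07 ± 0.57, Smco1 by 3.59 ± 0.36 and Efcab2 by 3.56 ± 0.74. Fsd2, Scgb1c1 and Psd3 fell by 3.54 ± 0.84, 3.54 ± 0.36 and 3.53 ± 0.48. Rxfp1, the relaxin receptor, fell from 6.34 to 6.93 in sham to background on day 1, by at least 1.87. Klhl33, Pkd2l2 and Rp1 likewise ended at background, with falls of at least 1.51, 1.21 and 1.00. All 21 leading falls and all 23 leading rises were called without array 13 as well.

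Against the later days, day 1 stood apart more from day 7 than from day 3 in the number of genes called. At the same threshold 1494 genes (8.12%) differed between day 1 and day 3, 398 (2.16%) higher and 1096 (5.96%) lower on day 1. Between day 1 and day 7 4853 genes (26.4%) differed, 2337 (12.7%) higher and 2516 (13.7%) lower on day 1. These contrasts share the day 1 arrays with the comparison above. The leading rises and falls were picked by their size on those same day 1 arrays. That choice favours day 1 as higher for the rises and as lower for the falls, so their counts describe the picked genes only. Array 31, which stood apart, is 1 of the 4 day 3 arrays. Of the 23 leading rises, 12 were higher on day 1 than on day 3 (16 without arrays 13 and 31), among them Retnlg, S100a9, Il1r2, Mmp8 and Stfa2l1 of the neutrophil list, and 23 were higher than on day 7. Retnlg averaged 12.86 ± 1.63 on day 1, 6.74 ± 2.38 on day 3 and 4.38 ± 0.12 on day 7 (SD, n = 4), where 3 of the 4 arrays were at background, and Thbs1 14.09 ± 0.86, 12.03 ± 0.60 and 11.48 ± 0.55. Of the 21 leading falls none passed between day 1 and day 3 at adjusted p under 0.05 in limma (2 at an unadjusted p under 0.05, 5 passed with array weights in the fit, and 5 without arrays 13 and 31), and 10 were lower on day 1 than on day 7. Kcnj3 averaged 8.22 ± 0.98, 9.29 ± 2.54 and 11.23 ± 0.87 on the 3 days, and Igfbp5 6.41 ± 0.75, 7.14 ± 1.32 and 9.24 ± 0.48. Nppb averaged 17.66 ± 0.19 on day 1, 17.62 ± 0.05 on day 3 and 16.32 ± 0.54 on day 7. Col3a1 ran the other way, with 9.19 ± 0.57 on day 1, 13.05 ± 1.15 on day 3 and 14.89 ± 0.49 on day 7.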

How the data were processed

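Atrial RNA of 16 mice was hybridised to Affymetrix arrays, 4 per group. The authors deposited log2 signals made with Affymetrix Expression Console, per the submitters' processing notes; no source used here gives the version, background correction or scaling. The labels name one array design and the deposited identifiers are those of another, so probe content stays uncertain. Of 72688 array features, 6732 were controls, 30604 had 1 gene symbol, 2146 several and 33206 none; 1121 symbols were updated to GRCm38.p6 names. For 430 of 30062 genes with several features the brightest was used. Genes above the median of all features on at least 4 of 16 arrays (18389) were tested with limma 3.58.1 in R 4.3.3 (lmFit, eBayes with trend, one mean per group over all 16 arrays), with Benjamini-Hochberg adjustment over them. The procedure was tested on simulated data. The number of arrays limits the precision.

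A gene was taken as at background when all 4 arrays of a group lay at or below the array's median negative control, a level chosen after seeing the values; "at least" marks a difference against that level. A mean above 19 counts as the top of the scale. The 78 gene lists (2082 genes, 1889 annotated, 1661 tested) and the rule for named genes were chosen with earlier results of these data known. The rule took the 15 largest rises and falls, up to 8 rises from and 6 falls to background, up to 4 called genes per list and direction, up to 3 bright genes per list that did not pass, some atrial, reference and inflammatory genes, and the 3 with the widest gap of array 13. Cxcl1, Cxcl3, Hspa5, Pdia6, Myl2, Egfr, the members that the motif counts name and the later-day examples were named outside it. Promoters came from RefSeq (GRCm38.p6), where 10858 of the tested genes had an entry; 4 motifs were searched in 250 bases, and matches of different motifs overlapped once. Alternatives covered the arrays in the fit, scaling, filter, background, variance model and gene features.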

Additional observations from a re-analysis of the deposited data

Results flagged for a closer look

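Among the genes named above and 3 array measures, 490 groups of 4 arrays were searched for 1 array far from the other 3, by Dixon's ratio of the gap to the nearest array over the range. In 29 groups such an array was found, and chance alone gives about 1 in 20. Day 1 array 13 was that array in 9 groups, sham array 1 in 8, day 1 array 12 in 6, sham array 3 in 3, and sham arrays 2 and 4 and day 1 array 14 in 1 each. Day 1 array 11 was in none.

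Array 13 was highest of the day 1 arrays for 5 genes of leukocytes, matrix or redox balance: S100a9 (13.89), Tlr13 (9.68), Alox5ap (13.42), Tgfbi (14.82) and Gsr (12.77). The same array was lowest for the ventricular light chain Myl2 (8.27) and the channel genes Kcnj3 (6.77) and Scn7a (7.34). Its median negative control was the highest too, at 4.87.

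Day 1 array 12 was lowest for the stromal gene Postn (12.76), the Wnt inhibitor Dkk3 (5.71), the peptide gene Nppb (17.37), the vessel gene Angpt2 (6.76) and Igfbp3 (8.09), and highest for Timd4 of resident macrophages (5.02). For Postn the other day 1 arrays lay at 13.47 to 13.48. Day 1 array 14 was lowest for Furin (6.75).

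Sham array 1 was highest for Timp1 (7.06), Lcn2 (7.33), F13a1 (11.55) and Asns (5.71), all of which rose on day 1. It was lowest for Kcnj3 (12.99), Cacna1c (11.47), Adcy6 (8.87) and Usp2 (8.94), all of which fell. In each of these 8 genes sham array 1 thus lay on the side of the day 1 arrays. Sham array 3 was highest for Ifit1 (6.66) and Cs (18.29) and lowest for Upk3b (7.34). H2-Ab1 was highest in sham array 2 (10.37) and Adamts1 in sham array 4 (8.64).

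The days differed for the genes given as examples, by limma contrasts with an adjusted p under 0.05. Day 1 minus day 3 was 6.12 for Retnlg, 2.06 for Thbs1 and -3.85 for Col3a1. Day 1 minus day 7 was 8.48 as measured for Retnlg, with 3 of 4 day 7 arrays at background, 2.61 for Thbs1, 1.33 for Nppb, -3.01 for Kcnj3, -2.84 for Igfbp5 and -5.70 for Col3a1.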

How the results depend on the processing

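Every array was left out in turn. Genes called higher then numbered 3344 to 4712 (4587 with all arrays) and genes called lower 3107 to 4229 (4085). The lists with most of their tested members called in 1 direction numbered 40, and 26 (without array 13) to 41 (without array 12) when an array was left out. The gap in control separation (day 1 minus sham, -0.031) ran from -0.0367 to -0.0203, each with an exact p of 0.0571, the smallest that 4 against 3 allows. Of the 230 named genes that passed, 216 did so under every alternative run that tested them. A gene that an alternative filter left untested does not count as lost. Calls were lost for 12 without array 13, for 3 to 8 without any other sham or day 1 array, for 4 with control separation as a covariate, for 5 with no filter, and for 2 each after centring and quantile normalisation. With that covariate Atp2a2 and Myh6, both at the top of the scale, turned to differences of 0.42 and 0.51. The counts higher and lower were 5990 and 4451 with 8 arrays alone, 6648 and 5127 with array weights, 4513 and 3305 with the covariate, 3457 and 5948 after quantile normalisation and 3465 and 5529 after centring, which moved the median of all genes by -0.131 and -0.0919. Either scaling turned the median of 5 of the 78 lists (antioxidants, G1 cyclins, collagens, epidermal growth factor and TGF-beta genes). Raising values to background turned 4 (potassium channels, mast cells and eosinophils, Schwann cells and neurons, other tissues), the covariate 2 (heat shock, lipid uptake), the stricter filter 1 (G1 cyclins), leaving out sham array 1 or 2 the glucocorticoid list and sham array 4 the collagens. The medians of these lists have no settled sign. The count of leading rises above day 3 went from 12 to 17 with array weights, and that of all 44 leading genes different from day 3 from 12 to 22, or to 21 without arrays 13 and 31. Signal over background is a limit for 324 rises and 330 falls that start or end at background, and 230 called genes were at background in both groups. No paired analysis was possible because the groups share no replicate numbers. Control separation within one class of control names was not run, since the names form a single class.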
